A study of Canis lupus familiaris with 6 samples.

Results

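The genes for the protein subunits of the mitochondrial ribosome were followed in 3 canine mammary tumor cell lines, each grown alone or beside myeloid-derived suppressor cells (MDSCs). The genes were chosen by name, as every gene on the array whose symbol is MRPL or MRPS followed by its number and at most 1 letter. This gave 63 genes with 99 probes, of 33206 distinct gene names with a probe that passed a minimal intensity, and no measured value entered the choice. Each gene is described by its brightest probe, the one with the highest mean level over all channels. The RefSeq gene table for the dog (assembly UU_Cfam_GSD_1.0) lists 76 symbols of this form, and all 63 are among them. The other 13, such as MRPL2, MRPL44, MRPS2, MRPS14 and MRPS22, were not found by name on the array.

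The cell lines were P114, from an anaplastic mammary cancer, CMT-U27, from a simple carcinoma, and CMT-U309, from a spindle cell tumor. Co-cultured cells shared their medium through a culture insert with MDSCs that had been sorted out of blood from healthy animals, for at least 72 h according to the sample descriptions, while the methods of the study give a shorter time. Monocultured cells of the same line served as control. RNA from both conditions of a line was hybridized together to Agilent canine 4x44K oligonucleotide arrays with one condition in Cy5 (red) and the other in Cy3 (green), and again with the dyes exchanged, so that 6 arrays with 12 channels hold 6 RNA samples. Each line is 1 culture model without its own replicate, the 2 arrays of a line were counted as 1 value, and n is 3 lines for co-culture over monoculture.

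The mitochondrial ribosome, or mitoribosome, translates the few proteins encoded by mitochondrial DNA, which are core subunits of the respiratory chain and of ATP synthase. All of its proteins are encoded in the nucleus, made by cytosolic ribosomes and imported. The large subunit carries the peptidyl transferase centre and the exit tunnel, and the small subunit decodes the mRNA. Many of the proteins descend from bacterial ribosomal proteins, and the rest were added in mitochondria. Inherited loss of single subunits impairs oxidative phosphorylation in tissues with a high energy demand.

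The signal of each gene comes from oligonucleotides of 60 bases, and a selection is shown because the results below turn on them. Coordinates are those of the deposited files on the canFam2 build, and all sequences run 5′ to 3′ in the sense of the transcript. MRPL23, a protein at the exit of the peptide tunnel, had the largest level difference between CMT-U27 and CMT-U309, and MRPL53, a large-subunit protein specific to mitochondria, that between P114 and CMT-U27. MRPL12, the stalk protein that contacts translation factors, was among the few members that differed between P114 and CMT-U309. MRPL4 and MRPL37, both in the large subunit, had the highest mean ratios of co-culture over monoculture. The probes of MRPL23, MRPL12 and MRPL4 span 566, 202 and 999 bases of genome, more than their own length. The sequences are all in lower case.
MRPL23, chr18:49192440-49193005, plus strand: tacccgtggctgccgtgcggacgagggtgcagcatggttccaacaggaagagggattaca
MRPL53, chr17:51732976-51733035, plus strand: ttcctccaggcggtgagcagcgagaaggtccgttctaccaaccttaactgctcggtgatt
MRPL12, chr9:3485273-3485474, minus strand: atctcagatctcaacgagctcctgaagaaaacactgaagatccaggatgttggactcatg
MRPL4, chr20:53842641-53843639, minus strand: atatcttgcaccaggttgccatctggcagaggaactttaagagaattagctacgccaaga
MRPL37, chr5:57831477-57831536, minus strand: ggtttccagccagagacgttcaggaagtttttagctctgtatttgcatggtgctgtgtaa

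MRPS18C, one of the S18 paralogs of the small subunit, had the lowest mean ratio of co-culture over monoculture and 4 probes, of which 3 overlap. They are shown because overlapping probes are not independent measurements of a transcript. The capitals mark the 37 bases that the second and the brightest probe share, and the first probe lies upstream and is split over a longer stretch of genome.
MRPS18C, chr32:10256659-10257490, plus strand: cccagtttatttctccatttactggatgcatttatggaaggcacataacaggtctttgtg
MRPS18C, chr32:10257637-10257696, plus strand: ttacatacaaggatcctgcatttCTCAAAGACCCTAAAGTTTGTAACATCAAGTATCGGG
MRPS18C, brightest, chr32:10257660-10257719, plus strand: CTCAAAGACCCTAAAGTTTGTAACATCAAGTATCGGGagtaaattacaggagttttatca

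Between 53.0% and 81.0% of all spots were well above background per channel, as flagged by the scanner software. The brightest probe was well above background in all 12 channels for 62 of the 63 genes, and no channel of a member was saturated. The exception was MRPL33, which was well above background in 4 of 12 channels and is therefore given no fold. Over all probes the ratios of the 2 arrays of a dye-swap, both turned to co-culture over monoculture, correlated at -0.39 for P114, 0.26 for CMT-U27 and -0.09 for CMT-U309. The ratios on the arrays of P114 thus ran against each other, as they would if the dyes of 1 of the arrays were named in reverse, and whether they were was not tested. The direction of co-culture over monoculture in P114 is therefore not settled, and the co-culture results are also given without this line and with either of its arrays turned. Differences between the mean levels of lines do not depend on it, since each line's mean holds both channels of both arrays. CMT-U27 had the highest signal of the epithelial markers EPCAM and KRT19, by 8.75 and 11.33 on the log2 scale over CMT-U309. The mesenchymal marker VIM was lower in CMT-U27 by 6.67 than in P114 and by 6.04 than in CMT-U309, and KRT8, KRT18 and KRT7 were not found by name. Of 10 measured myeloid markers out of 13 listed, ITGAM and LYZ were well above background in no channel and S100A8 in all 12.

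Most mitoribosomal protein genes had their highest level in CMT-U27. Levels are log2 processed signals with the median of each channel set to 1 shared value, and they are compared only for the same probe between samples. CMT-U27 was the highest line for 49 of 63 genes, P114 for 9 and CMT-U309 for 5, and CMT-U309 was the lowest line for 40. The highest and lowest lines of other genes were not counted. P114 lay above CMT-U27 for 13 members, and CMT-U27 lay above CMT-U309 for 54. Of 15888 genes well above background in all 12 channels, 7919 and 9351 did so. With the condition as a covariate, limma called 19 genes (30.2%) lower in P114 than in CMT-U27 and 0 higher, at a Benjamini-Hochberg adjusted p under 0.05 and a fold over 2. By the same rule 12.6% of all probes were lower and 11.6% higher in P114. Among genes well above background in all 12 channels, these shares were 13.4% and 10.1%. In CMT-U27 against CMT-U309, 24 members (38.1%) were called higher and 1 lower. Of all probes 15.7% were higher in CMT-U27 and 13.3% lower, and of genes well above background 18.5% and 10.2%. In P114 against CMT-U309, 4 members were called higher and 1 lower, beside 7.69% and 6.85% of all probes and 8.26% and 4.79% of genes well above background.

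The median difference of the 63 genes on the log2 scale was -0.65 for P114 minus CMT-U27, 0.22 for P114 minus CMT-U309 and 0.87 for CMT-U27 minus CMT-U309. For the 15888 genes well above background the same medians were -0.00371, 0.16 and 0.19. The members thus lay apart from these genes in both pairs with CMT-U27 and close to them in P114 against CMT-U309. With normexp background correction, loess and Aquantile in place of the scaled signals, the counts called lower in P114 and higher in CMT-U27 fell to 12 and 11. At that setting 4.67% of all probes and 6.55% of genes well above background were lower in P114, and 5.05% and 7.59% were higher in CMT-U27. The differences of the members ranged from -2.18 to 0.52, from -1.96 to 2.23 and from -1.41 to 3.74. Monocultured samples alone gave medians of -0.63, 0.26 and 1.00, and co-cultured samples alone gave -0.58, 0.17 and 0.79. Each line was hybridized on a slide of its own and its RNA samples share arrays, so slide and line cannot be told apart and the p-values may be too small. Fewer cells of a kind and less RNA per cell cannot be told apart either.

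**Figure D1:**
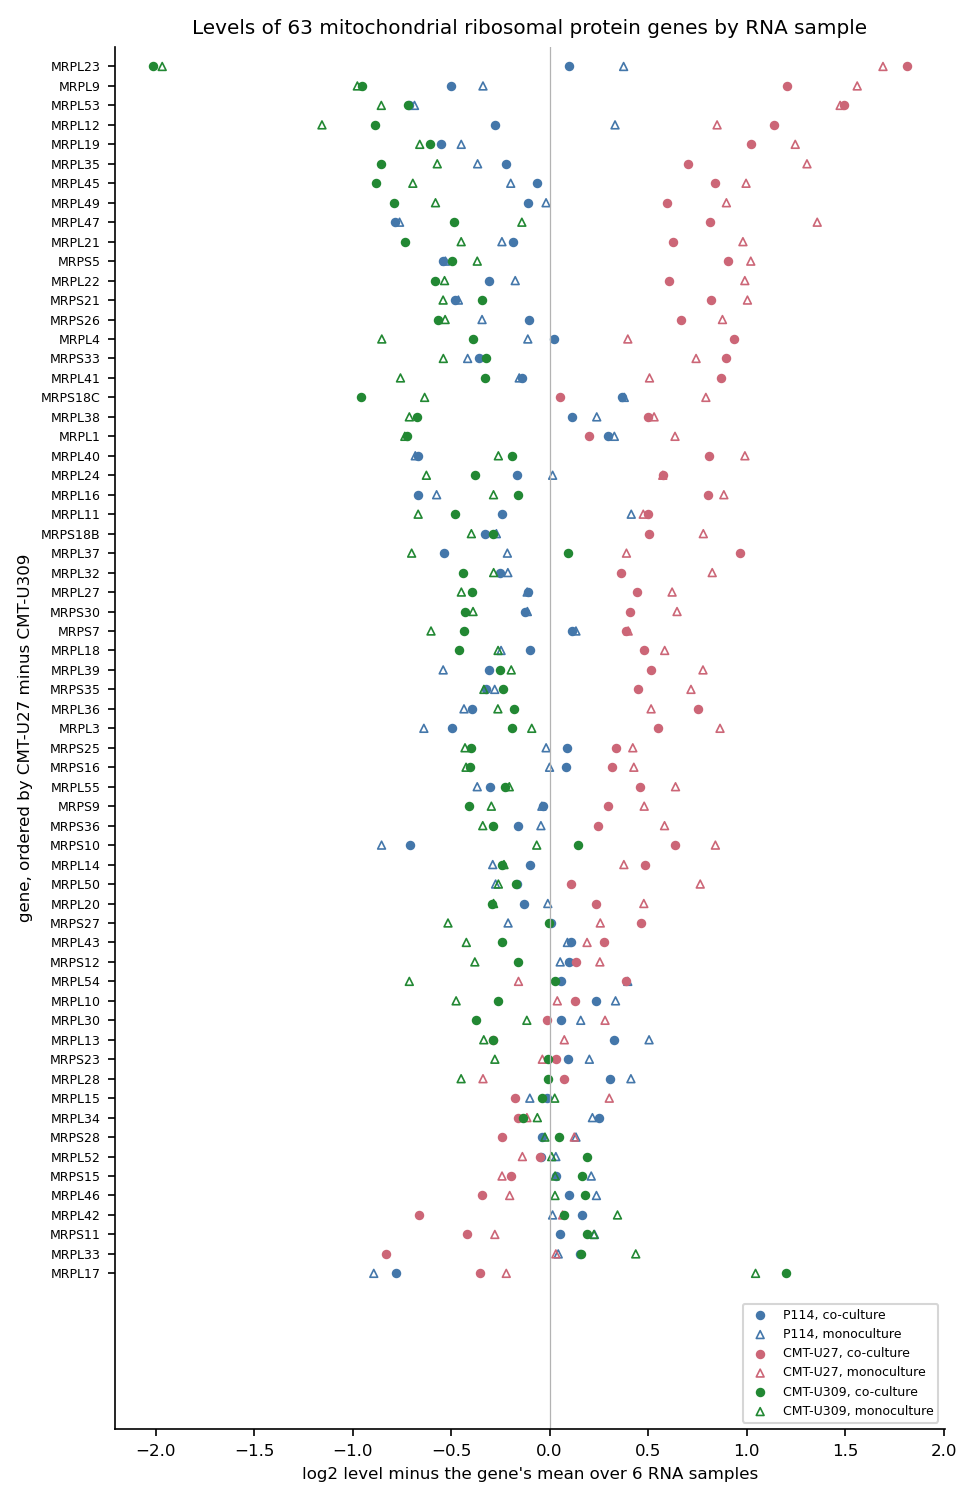
Log2 level of 63 mitochondrial ribosomal protein genes in 6 RNA samples (x axis, minus the gene's mean over the 6 samples), each point the mean of 2 arrays of a dye-swap, with co-culture as filled circles and monoculture as open triangles. CMT-U27 (red) lies to the right for most genes, CMT-U309 (green) is lowest for 40 genes, and MRPL17 at the bottom is highest in CMT-U309.

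MRPL23, which borders the exit of the peptide tunnel, had the largest difference of all members. Its log2 level was 10.71 in co-cultured and 10.99 in monocultured P114 cells, 12.43 and 12.31 in CMT-U27 cells, and 8.60 and 8.65 in CMT-U309 cells. The 3 lines did not overlap. The level in CMT-U27 was 13.4-fold that in CMT-U309 (log2 difference 3.74, SE 0.15, adjusted p = 2.76e-08) and 2.86-fold that in P114 (adjusted p = 2.09e-05). P114 was 4.68-fold above CMT-U309 (adjusted p = 2.69e-06).

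MRPL53 had log2 levels of 7.96 and 7.98 in P114, 10.17 and 10.14 in CMT-U27, and 7.95 and 7.82 in CMT-U309, in co-culture and monoculture. Only CMT-U27 stood apart, by 4.55-fold from P114 (adjusted p = 1.88e-06) and by 4.83-fold from CMT-U309 (adjusted p = 1.24e-06). The difference of P114 from CMT-U309 was 0.09 with an SE of 0.15. MRPL9 and MRPL19, counterparts of bacterial large-subunit proteins, followed the same order. MRPL9 was 3.48-fold and 5.08-fold higher in CMT-U27 than in P114 and CMT-U309, and MRPL19 had log2 differences of -1.63 for P114 minus CMT-U27 and 1.77 for CMT-U27 minus CMT-U309, with adjusted p of 7.17e-06 or less in each case.

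Altogether 14 members were called higher in CMT-U27 than in both other lines, namely MRPL9, MRPL16, MRPL19, MRPL21, MRPL22, MRPL23, MRPL35, MRPL40, MRPL45, MRPL47, MRPL53, MRPS5, MRPS21 and MRPS33. They include counterparts of bacterial proteins as well as proteins specific to mitochondria. The share of all genes called higher in CMT-U27 than in both other lines was not counted. In P114 against CMT-U309, the 4 members called higher were MRPL1, MRPL12, MRPL23 and MRPS18C, and the member called lower was MRPL17. MRPS18C had log2 levels of 12.60 and 12.61 in P114, 12.28 and 13.03 in CMT-U27, and 11.28 and 11.60 in CMT-U309. CMT-U309 was the line apart here, 2.25-fold below P114 (adjusted p = 0.000727) and 2.33-fold below CMT-U27 (adjusted p = 0.000253), while P114 and CMT-U27 differed by -0.05 with an SE of 0.17.

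MRPL17, a counterpart of the bacterial protein L17 of the large subunit, was the only member called higher in CMT-U309 than in either other line. Its log2 levels were 12.21 and 12.06 in CMT-U309, 10.66 and 10.79 in CMT-U27, and 10.23 and 10.12 in P114, again in co-culture and monoculture. The level in CMT-U309 was 3.88-fold that in P114 (adjusted p = 4.67e-06) and 2.65-fold that in CMT-U27 (adjusted p = 2.01e-05). MRPL17 has 1 probe on the array, at chr21:33176649-33176708, so no other probe could be set beside it. The same limit holds for MRPL9, MRPL12, MRPL19, MRPL23 and MRPL53, which also have 1 probe each. Of the other members for which CMT-U27 was not the highest line, MRPL10, MRPL13, MRPL28, MRPL34, MRPL42, MRPL46, MRPL52, MRPL54, MRPS11, MRPS15, MRPS23, MRPS28 and the dim MRPL33, none was called in any line pair. MRPL13, a counterpart of a bacterial large-subunit protein, was highest in P114, with a difference of 0.52 (SE 0.14) from CMT-U27 and 0.73 (SE 0.14) from CMT-U309.

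Grouped by subunit, 15 of 44 large-subunit genes and 4 of 18 small-subunit genes were called lower in P114 than in CMT-U27, and 19 and 5 were called higher in CMT-U27 than in CMT-U309. Median differences of CMT-U27 minus CMT-U309 were 0.94 for the large and 0.79 for the small subunit. MRPS36 was counted in neither, since this protein is now placed in the oxoglutarate dehydrogenase complex. Of 41 measured counterparts of bacterial proteins, 16 were called higher in CMT-U27 than in CMT-U309, and of 21 proteins specific to mitochondria 8 were, with medians of 0.89 and 0.87. Differences between the groups were not tested.

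Within the large subunit, 5 genes were listed for proteins around the peptide exit or at the membrane, MRPL22, MRPL23, MRPL24, MRPL45 and MRPL47. All 5 were called higher in CMT-U27 than in CMT-U309, with differences from 1.08 to 3.74. MRPL45, which anchors the mitoribosome to the inner membrane, was 3.26-fold higher (adjusted p = 5.42e-06), and MRPL47 was 2.63-fold higher (adjusted p = 5.06e-05). All but MRPL24 were also called lower in P114 than in CMT-U27, MRPL47 by 3.62-fold (adjusted p = 8.32e-06). The calls of MRPL45 rest on its brightest probe. Its other 2 probes were above background everywhere too and had differences of 0.94 and 0.96 for CMT-U27 minus CMT-U309 and -0.30 each for P114 minus CMT-U27, which were not called. The second probes of MRPL24 and MRPL47 had 0.80 and 0.98 for CMT-U27 minus CMT-U309, under the fold threshold as well, and that of MRPL22 had 1.35. The list is short, may leave out other proteins near the exit and was fixed with earlier results of these data known. The calls of all 5 therefore do not stand for exit proteins as a group. MRPL17, a large-subunit gene that the list leaves out, was called lower in CMT-U27 than in CMT-U309, with a difference of -1.41. MRPL32, likewise left out, had 0.95 and was not called.

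The stalk recruits translation factors, and its genes MRPL10, MRPL11 and MRPL12 were each lowest in CMT-U309. MRPL12, which is also known to bind the mitochondrial RNA polymerase, had log2 levels of 10.21 and 10.82 in P114, 11.62 and 11.34 in CMT-U27, and 9.60 and 9.33 in CMT-U309. The lines did not overlap, and CMT-U27 was 4.04-fold above CMT-U309 (adjusted p = 3.05e-05). P114 was 2.07-fold above CMT-U309 (adjusted p = 0.00432). MRPL11 was 2.08-fold higher in CMT-U27 than in CMT-U309 (adjusted p = 0.00135), and the difference of MRPL10 was 0.45 with an SE of 0.15 and was not called.

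Of the 5 measured genes for the central protuberance, a part of the large subunit that faces the small one, MRPL40 and MRPL38 were called higher in CMT-U27 than in CMT-U309, by 2.18-fold and 2.31-fold. MRPL40 was also 2.98-fold lower in P114 than in CMT-U27 (adjusted p = 9.51e-06). MRPL18 and MRPL27 had differences of 0.89 and 0.95 between CMT-U27 and CMT-U309, just under the fold threshold, and MRPL46 had -0.38. Of 12 genes listed for inherited deficiency of oxidative phosphorylation, 7 were measured, MRPL3, MRPL12, MRPS7, MRPS16, MRPS23, MRPS25 and MRPS28. Only MRPL12 among them was called higher in CMT-U27 than in CMT-U309. The median of the 7 was 0.79.

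MRPL3, a counterpart of bacterial L3 near the peptidyl transferase centre, was called 2.42-fold lower in P114 than in CMT-U27 by its brightest probe (adjusted p = 8.16e-05), and the other probes did not show this. The brightest probe lies nearest the 3′ end at chr23:31617306-31617365 on the minus strand and had a difference of -1.27. The 2 upstream probes had differences of 0.03 and -0.02, with an SE of 0.15 each, and all 3 probes were well above background in all channels. The upstream probes are shown because their value differs from that of the probe chosen by brightness.
MRPL3, chr23:31617667-31621823, minus strand: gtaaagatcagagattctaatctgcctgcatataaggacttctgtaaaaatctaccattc
MRPL3, chr23:31642811-31651493, minus strand: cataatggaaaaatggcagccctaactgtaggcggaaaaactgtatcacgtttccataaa

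Among the 24 genes with more than 1 probe, 4 had probes that differed by over 1 on the log2 scale in some line pair, namely MRPL3, MRPL41, MRPL49 and MRPS9. The 3 probes of MRPL49 gave P114 minus CMT-U27 differences of -0.81 for the brightest, -0.46 and 1.23, which is a turn of direction. For CMT-U27 minus CMT-U309, where MRPL49 was called higher, the brightest probe had 1.43. The other probes of MRPL49 had 0.43 and -0.15 there, were well above background in all 12 channels and were not called. MRPS9 gave -0.43 for the brightest, -0.17 and 0.75. The second probe of MRPL41 is placed on the opposite strand and was well above background in 2 of 12 channels. In the other 20 genes no probes lay farther apart than 0.95, which still let some change direction. MRPS15 had 0.34 by its brightest probe and -0.45 by the other for P114 minus CMT-U27, and its second probe was highest in CMT-U27. The 4 probes of MRPS36 ran from -0.71 to 0.24. MRPL37, for example, gave -1.05, -0.97 and -1.19 from 3 probes that share no run over 6 bases, and MRPL22 gave -1.04 for its brightest probe and -0.96 for the other.

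The mitoribosomal genes were set beside 49 genes of cytosolic ribosomal proteins and 61 genes of oxidative phosphorylation subunits, both taken by symbol. In P114 against CMT-U27, 1 cytosolic ribosomal protein gene was called lower and 0 higher, with a median of 0.15 where the mitoribosomal genes had -0.65. For oxidative phosphorylation 5 were called lower and 4 higher (8.20% and 6.56%), with a median of -0.26. Of genes well above background 13.4% were lower and 10.1% higher in P114. In CMT-U27 against CMT-U309, the medians were 0.68, 0.77 and 0.87 for cytosolic ribosomal, oxidative phosphorylation and mitoribosomal genes, and 6, 22 and 24 genes were called higher. These counts are 12.2%, 36.1% and 38.1% of the lists, beside 18.5% of genes well above background. In P114 against CMT-U309 the order was another one, with medians of 0.78, 0.49 and 0.22. Whether the lists differ was not tested.

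**Figure D2:**
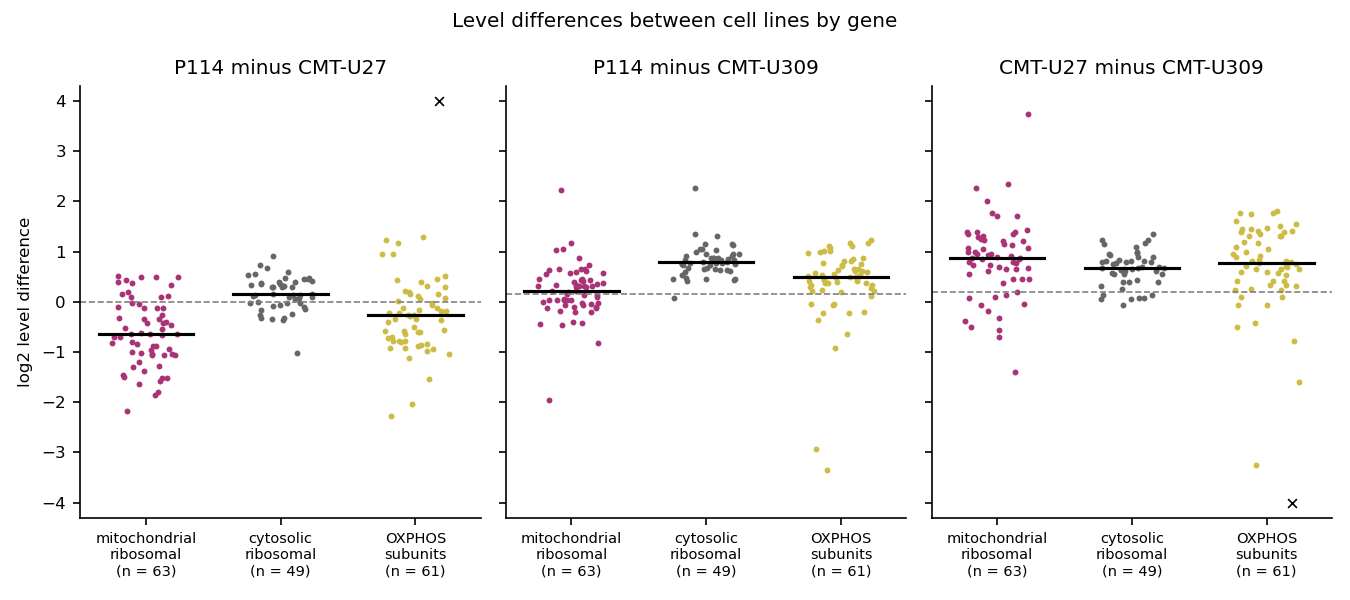
Log2 level difference between cell lines (y axis) for each mitochondrial ribosomal, cytosolic ribosomal and oxidative phosphorylation (OXPHOS) gene, with the list median as a bar and the median of genes well above background as a dashed line. The mitoribosomal median lies at -0.65 in the left panel, where the cytosolic ribosomal median is 0.15. The crosses mark 1 gene, COX7A1, whose values of 6.56 and -9.90 lie beyond the axis.

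Lists of genes that serve the mitoribosome or mitochondrial DNA had medians of CMT-U27 minus CMT-U309 from 0.43 to 0.85, all below that of the members. Of 7 mitoribosomal proteins with other symbols, GADD45GIP1, PTCD3 and ICT1 were called higher in CMT-U27 than in CMT-U309, with differences of 1.03, 2.36 and 1.05, and the first 2 were also called lower in P114 than in CMT-U27. Of 13 measured translation factors 5 were called higher in CMT-U27 than in CMT-U309, among them TUFM, the mitochondrial elongation factor Tu, with 1.21, and MTRF1, a release factor homolog, with 2.12. Of 14 mitoribosome assembly factors 3 were higher. Of 17 mitochondrial aminoacyl-tRNA synthetases 4 were higher, and 0 were called lower in CMT-U27 than in CMT-U309 in any of these lists. Of genes well above background 18.5% were higher, which lies near the shares of the assembly factors and the synthetases. Of 13 genes for mitochondrial DNA transcription and replication, 5 were called higher in CMT-U27 than in CMT-U309 and 4 lower in P114 than in CMT-U27. TFAM, which packages mitochondrial DNA and helps to start its transcription, had differences of 1.62 and -1.66.

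The members map to 29 numbered chromosomes of canFam2, and 1, MRPL16, has no assigned chromosome. Chromosome 17 carries 7 members, MRPL9, MRPL19, MRPL33, MRPL35, MRPL53, MRPS5 and MRPS21. All of these but the dim MRPL33 were called higher in CMT-U27 than in both other lines. Their median difference of CMT-U27 minus CMT-U309 was 1.72, and the 56 other members had 0.85. The 528 other genes on chromosome 17 that were well above background had a median of 0.69, beside 0.19 for such genes on all chromosomes. Chromosome 18 carries 5 members with a median of 1.40, and its 541 other genes had 0.67. The pair on chromosome 15, MRPL42 and MRPS15, and that on chromosome 3, MRPL46 and MRPS11, had medians of -0.41 and -0.46, where other genes of these chromosomes had -0.16 and -0.21. The chromosomes were singled out after their values were seen, and the part of the chromosome in the line differences was not tested.

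**Figure D3:**
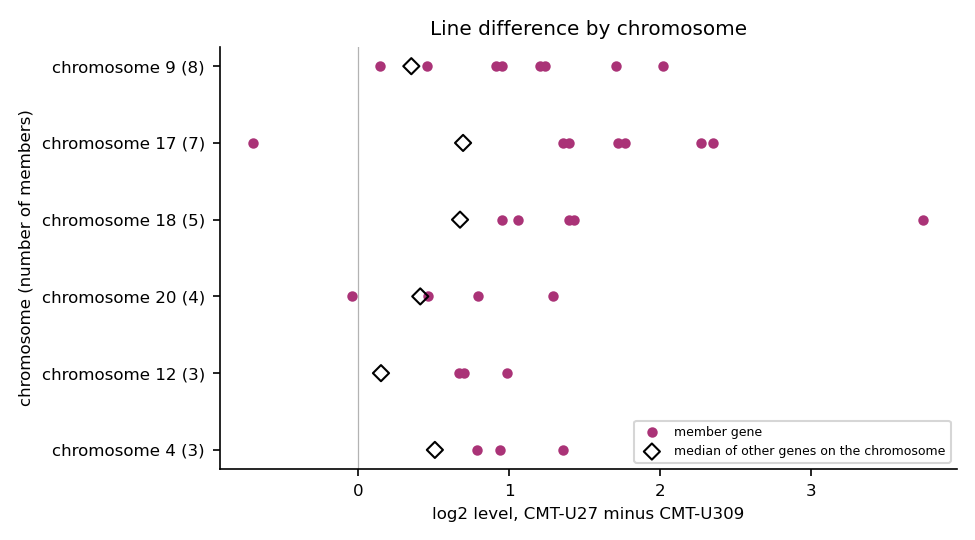
Log2 level of CMT-U27 minus CMT-U309 (x axis) for members on the 6 chromosomes that carry at least 3 of them, with the median of the other genes of the chromosome as an open diamond. On chromosome 17, 6 of 7 members lie above the chromosome's own median of 0.69, and the seventh is MRPL33, which is near background.

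The mean ratios of co-culture with MDSCs over monoculture were small for the mitoribosomal protein genes. At the thresholds of the study's methods, an unadjusted p under 0.05 and a fold over 2, limma called 0 of the 63 members over the 3 lines, beside 1.22% of all 40873 probes. At an adjusted p under 0.05, 0 members and 0% of all probes were called. At an unadjusted p under 0.05 alone, 5 members (7.94%) passed, 3 higher and 2 lower, beside 9.94% of all probes. The log2 ratios ranged from -0.36 to 0.38 with a median of -0.04, where all genes had a median of 0.0016. For 62 members the 95% confidence interval of the ratio lay within a fold of 2 in either direction, and the exception was MRPL33. For these genes one by one, changes of 2-fold and more in the mean of the 3 lines were thus outside the interval. Smaller ones could lie within it. The interval rests on the spread of the line means and does not hold the disagreement between the arrays of a dye-swap. MRPL45, for example, had -0.91 and 1.17 on the P114 arrays, which averaged to 0.13. A change that the arrays of a line report in opposite directions is therefore not excluded. The median SE of a ratio was 0.117.

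**Figure D4:**
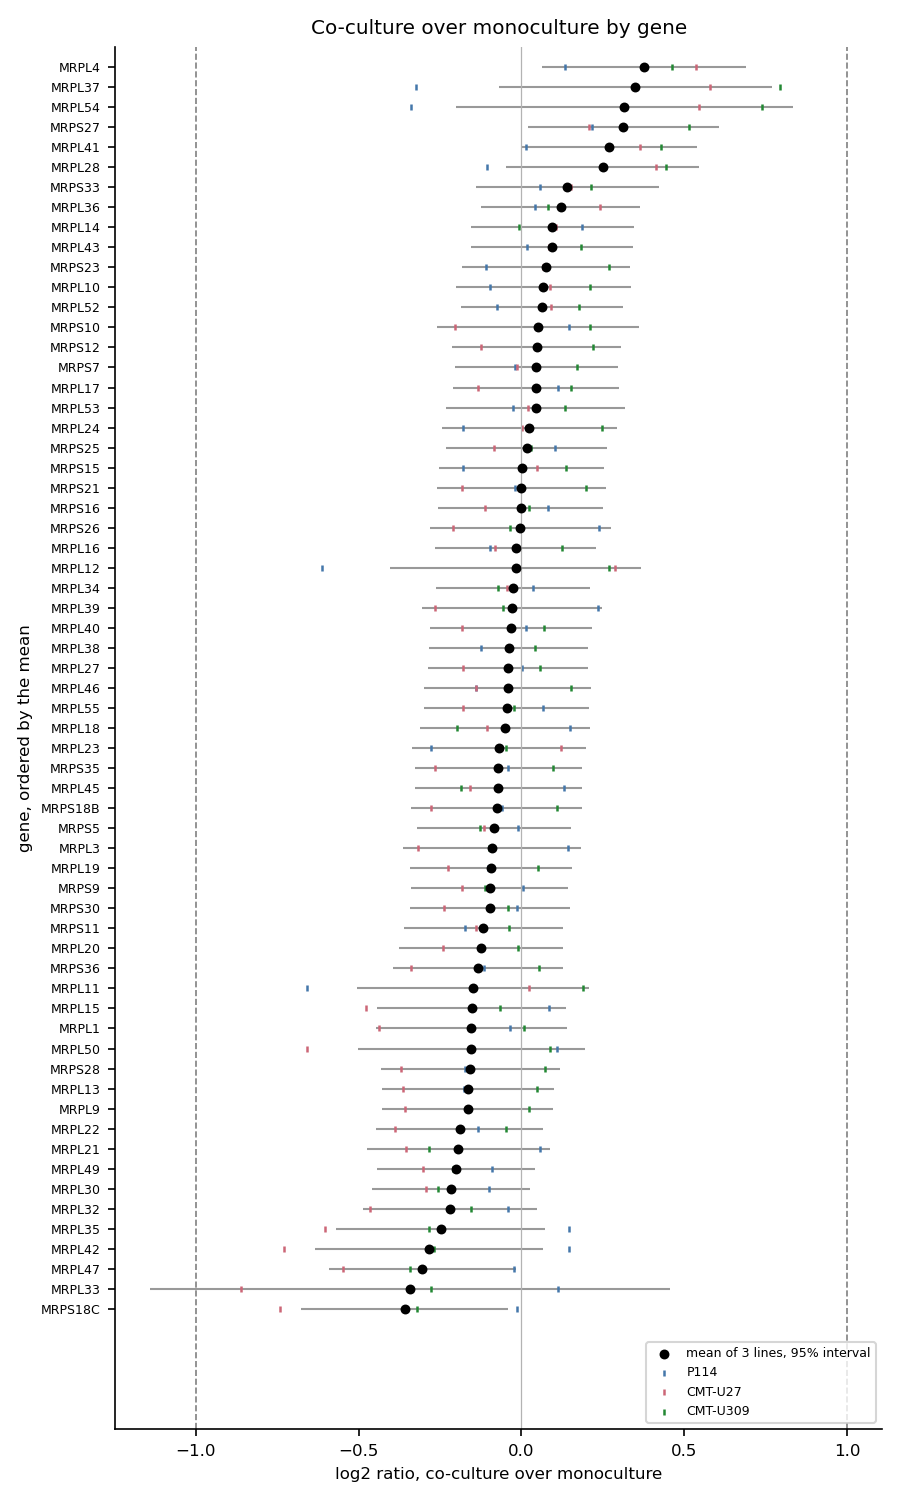
Log2 ratio of co-culture over monoculture (x axis) for each of 63 genes, with the mean of 3 cell lines as a black point, its 95% confidence interval from limma as a line, and the value of each line as a coloured tick. All intervals but that of MRPL33 lie between the dashed lines at a fold of 2.

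The highest mean ratios were those of MRPL4, MRPL37, MRPL54 and MRPS27. MRPL4, which lines the peptide tunnel, had log2 ratios of -0.12 and 0.39 on the P114 arrays, 0.71 and 0.36 on the CMT-U27 arrays, and 0.40 and 0.52 on the CMT-U309 arrays, with co-culture RNA in Cy5 on the first array of each pair. It was higher in co-culture on all arrays but 1. The mean was 0.38 (95% interval 0.06 to 0.69, n = 3 lines), a fold of 1.30, with an adjusted p of 0.498 in limma. MRPL37, a protein specific to mitochondria, had -0.29 and -0.36 in P114, 0.72 and 0.43 in CMT-U27, and 1.26 and 0.33 in CMT-U309, so P114 went against the other two. Its mean was 0.35 (95% interval -0.07 to 0.77). MRPL54 had -0.34 in P114, 0.55 in CMT-U27 cells and 0.74 in those of CMT-U309 as means of 2 arrays, and MRPS27, an RNA-binding protein of the small subunit, had 0.22, 0.21 and 0.51.

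The lowest mean ratios among members well above background were those of MRPS18C, MRPL47, MRPL42 and MRPL35. MRPS18C had log2 ratios of 0.10 and -0.13 in P114, -0.97 and -0.51 in CMT-U27, and -0.56 and -0.08 in CMT-U309. It was lower in co-culture on all arrays but 1 of P114. The mean was -0.36 (95% interval -0.68 to -0.04, n = 3 lines; adjusted p = 0.498 in limma). Its 4 probes gave means from -0.38 to -0.32. MRPL47 had -0.02 in P114, while CMT-U27 had -0.55 and CMT-U309 -0.34. MRPL42 had 0.15, -0.73 and -0.27, and MRPL35 had 0.15, -0.60 and -0.29, so both were higher in P114 and lower in the other lines. Over all 63 genes, MRPL22 and MRPL30 were lower in co-culture on all 6 arrays, with means of -0.19 and -0.22, and 0 genes were higher on all 6.

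The signs of the ratios are given by line, with no test of the difference between lines. In CMT-U27, 37 members were lower in co-culture on both arrays and 11 higher (58.7% and 17.5%), with a median ratio of -0.16. Of genes well above background 33.8% were lower and 31.2% higher on both arrays of this line. In CMT-U309, 9 were lower on both arrays and 22 higher (14.3% and 34.9%, beside 23.8% and 31.8% of genes well above background), with a median of 0.05. In P114, 13 were lower and 7 higher (20.6% and 11.1%, beside 17.7% and 25% of genes well above background), with a median of -0.02, and the rest changed sign with the dye. The medians on single arrays were -0.02 and -0.04 for P114, -0.21 and -0.14 for CMT-U27, and -0.01 and 0.13 for CMT-U309, where genes well above background had medians from -0.04 to 0.08. For the cytosolic ribosomal protein genes the medians were 0.00632 for P114, -0.26 for CMT-U27 and -0.20 for CMT-U309. The summed signal of the 10 measured myeloid markers, which is led by S100A8 in CMT-U27, lay between 12.7 and 12.8 on the log2 scale in monocultured and at 13.6 on both arrays in co-cultured CMT-U27 cells. In CMT-U309 it was 9.90 to 9.92 and 9.83 to 10.2, and in P114 8.88 to 9.49 and 8.93 to 9.09. S100A8 alone had log2 levels of 12.64 in monocultured and 13.49 in co-cultured CMT-U27 cells. In the same line CSF3R, TYROBP and MPO were lower in co-culture, with log2 ratios of -1.17, -1.31 and -0.55, and the remaining markers were higher. The sum therefore does not stand for the markers as a group. The part of the summed signal in the ratios was not tested.

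Across the 63 members the ratio in CMT-U27 was correlated with that in CMT-U309 (Pearson's r = 0.80 over genes), and with that in P114 at -0.31. The genes are not independent replicates, and the points of a line share its arrays. The 2 arrays of CMT-U309 correlated at -0.02 over the members and those of CMT-U27 at 0.61. The share of G and C in the probe moved with these ratios, with r = 0.66 in CMT-U27, 0.54 in CMT-U309 and -0.15 in P114 over the members, and 0.34, 0.27 and -0.13 over genes well above background. The members' probes had between 35% and 63.3% G and C. Of the genes named for their ratios, MRPL54 had 63.3% and MRPS27 55.0%, MRPL4 and MRPL37 45.0%, and MRPS18C, MRPL47, MRPL42 and MRPL35 between 35% and 36.7%. The part of base composition in the ratios was not tested. Over the same genes, G and C correlated with the level differences between lines by 0.14 at most.

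**Figure D5:**
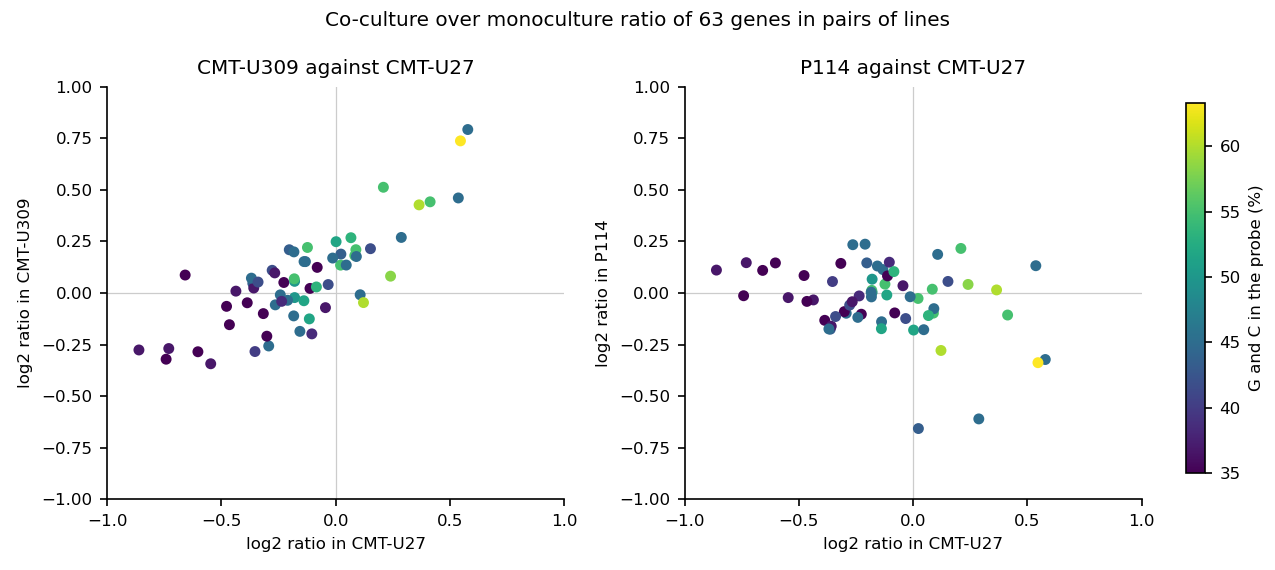
Log2 ratio of co-culture over monoculture for 63 genes in CMT-U27 (x axes) against CMT-U309 (left) and P114 (right), each point a gene and each ratio the mean of a dye-swap, with the share of G and C in the probe as colour. Genes rise along the diagonal in the left panel (r = 0.80) and not in the right (r = -0.31), and light points with more G and C lie toward higher ratios in CMT-U27.

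With the ratios of the first or of the second P114 array turned, 0 members were called at either threshold, and the medians were -0.04 and -0.03. MRPL4, MRPL37, MRPL54 and MRPS27 kept ratios above 0 and MRPS18C, MRPL47, MRPL42 and MRPL35 below 0 under both, from 0.17 for MRPS27 to 0.56 for MRPL54 and from -0.39 for MRPS18C to -0.27 for MRPL47. Their ranks did not hold, since MRPL45 had the lowest ratio, -0.46, with the second array turned. When P114 was left out, limma called 10 members at an adjusted p under 0.05 over CMT-U27 and CMT-U309 alone, 5 higher and 5 lower. These are 15.9% of the members, beside 15.6% of all probes and 20.0% of genes well above background, so the share was not above the background. The members were MRPL4, MRPL28, MRPL37, MRPL41 and MRPL54, which were higher in co-culture, and MRPL21, MRPL35, MRPL42, MRPL47 and MRPS18C, which were lower. The largest in each direction were MRPL37 with 0.69 (SE 0.10, adjusted p = 0.00126) and MRPS18C with -0.53 (SE 0.11, adjusted p = 0.0083), and 0 reached a fold of 2. With 2 lines, each probe has 1 residual degree of freedom of its own, and limma takes most of the error from the other probes. The arrays of CMT-U309, which is 1 of these 2 lines, did not reproduce each other's ratios either. They correlated at -0.09 over all probes and at -0.02 over the members.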

How the data were processed

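RNA from co-cultured and monocultured P114, CMT-U27 and CMT-U309 cells was compared on 6 two-colour arrays, 2 per line with the dyes exchanged. The authors deposited 1 scanner table per array, made with Feature Extraction (10.10.1.1 per the file headers, 10.7.3.1 per the submitters' processing notes), which holds a processed signal intensity for each dye, which is background-subtracted and dye-normalized, the raw spot and background intensity, and flags (other columns). They also deposited a table of log10 ratios of co-culture over monoculture. From the processed signals, channels were brought to the same median, taken as log2 and turned to co-culture over monoculture. Spots that are controls or flagged as outliers did not enter, nor did probes whose maximal signal was 10 or less, which left 40873 of 43603 probes. Low signals are replaced by the software, which shrinks the differences of dim probes.

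Arrays of a dye-swap were averaged. The 3 line ratios were tested against 0, and levels of 6 RNA samples were compared between lines with the condition as covariate, by limma (version 3.58.1, R 4.3.3; moderated variances with an intensity trend), adjusted by Benjamini-Hochberg over all probes. On simulated data, in which every change put in lay well above the fold threshold, the co-culture test recovered 197 of 200 changed probes by unadjusted p and fold. By adjusted p it recovered 129. The test of P114 over CMT-U27 recovered 104 of 200. Recovery by fold needed an estimate above the fold threshold, which no member's mean co-culture ratio reached. The co-culture counts therefore do not show how well changes as small as the members' ratios would be found. Nor does the count for P114 over CMT-U27 show this for line differences smaller than those put in. The number of arrays limits the precision.

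Members, gene lists and tests were chosen with earlier results of these data known. Genes were named by rule. These are the 4 members with the highest and the 4 with the lowest co-culture ratio, the brightest and dimmest, up to 4 per line pair with the largest called difference, members whose probes differ by over 1, and those in the role lists. The 4 brightest were MRPL21, MRPS16, MRPS26 and MRPL14, and the 3 dimmest MRPL33, MRPL54 and MRPL4. Replicate numbers mark the dye orientation. Alternatives were other background corrections, scalings, filters and tests, the replicate block, the median over probes, single arrays or lines left out, and either P114 array turned.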

Additional observations from a re-analysis of the deposited data

Results flagged for a closer look

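Of the members named for their co-culture ratio, 3 moved in opposite directions in P114 and in another line, with both arrays of each line on the same side, and the difference was not tested. MRPL37 was lower in co-cultured P114 cells and higher in the other lines, with P114 minus CMT-U27 at -0.90 and P114 minus CMT-U309 at -1.12 on the log2 scale. MRPL42 was higher in co-cultured P114 cells and lower in the other lines, with differences of 0.88 and 0.42. MRPL35 differed between P114 and CMT-U27 by 0.75. In all, 17 of the 63 members showed such opposite directions, some in more than 1 pair of lines, with 9 between P114 and CMT-U27, 4 between P114 and CMT-U309 and 7 between CMT-U27 and CMT-U309. Among genes well above background 24.8% showed opposite directions in some pair of lines, beside 27% of the members, so the pooled count is near that of other genes. By pair, in the order above, the members' shares were 14.3%, 6.35% and 11.1%. Genes well above background had 17.6%, 14.8% and 4.73%, so the members lay below them in some pairs and above them in another. The array pair of P114 itself correlated at -0.48 over the members, and the direction of its ratios is not settled.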

How the results depend on the processing

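No member was called for co-culture at the thresholds of the methods under any alternative run, and the direction of no called line difference of a named gene reversed. With P114 left out 10 members passed an adjusted p under 0.05, and with single arrays or the other lines left out, or with either P114 array turned (an alternative chosen after seeing the data), 0 did. The replicate block left 0 members called for co-culture, a median of -0.04, and 19, 4 and 24 members called between lines, with medians of -0.65, 0.22 and 0.87. Replicate numbers mark the dye orientation. Arrays of the same number in different lines correlated from -0.22 to 0.40 for number 1 and from 0.47 to 0.61 for number 2. The 2 arrays of a line correlated at -0.39 for P114, 0.26 for CMT-U27 and -0.09 for CMT-U309, likewise over all probes. The part of the dye in the ratios was not tested. Normexp correction with loess and Aquantile gave 12 members lower in P114 than in CMT-U27 and 2 higher in P114 than in CMT-U309. It gave 11 higher in CMT-U27 than in CMT-U309, with medians of -0.44, 0.013 and 0.50. Quantile normalization gave medians of -0.48, 0.044 and 0.52, and 2 members higher in P114 than in CMT-U309. Scaling to probes well above background, chosen after seeing the data, gave -0.56, 0.079 and 0.63, and also 2 members. Under these 3 scalings genes well above background had medians between -0.05 and 0.10 for each line pair, so the direction held for the pairs with CMT-U27, while the members' median in P114 against CMT-U309 was near that of other genes. The median over a gene's probes gave -0.53 for P114 minus CMT-U27. Without single arrays this median ranged from -0.69 to -0.56, that of P114 minus CMT-U309 from 0.11 to 0.32 and its count from 2, without P114 replicate 2, to 4. Among 504 values that the called line differences of named genes took under alternatives, 451 were still called and 53 were not, and of 1047 values of uncalled differences 8 were called. The scaling between lines and 2 RNA samples per line limit all level comparisons.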
